A study of Mus musculus with 4 samples.

Results

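The 10 genes described here, Fabp7, Slc1a3, Vim, Nes, Pax6, Sox2, Sox9, Hopx, Tnc and Aldoc, are structural and stem cell genes of radial glia. They were chosen as a fixed list by name, and 10 of the 10 were found among the 16600 genes of the single-cell table. Earlier results of these data were known at that point, among them a higher Fabp7 in Setd5+/- cells of a glial group. Their levels were followed from radial glia through intermediate progenitors to neurons, in radial glial cells with and without Olig1, and between Setd5+/+ and Setd5+/- fetuses.

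Radial glia are the stem cells of the developing cortex. They span the wall of the forebrain with a long process, divide at the ventricle, and give rise to intermediate progenitors that express Eomes (Tbr2), to neurons and, late in gestation, to glial progenitors that express Olig1. The cells hold their shape with the intermediate filament proteins vimentin (Vim) and nestin (Nes), carry the glutamate transporter GLAST (Slc1a3) and the fatty acid binding protein BLBP (Fabp7), and keep their stem cell state through transcription factors such as Pax6, Sox2 and Sox9 and through Notch signaling, which acts on DNA with the factor RBPJ.

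Cells were taken from C57BL/6J fetuses at E18.5 and sorted as CD24+ CD45-, a gate for neuronal cells in which CD45 is a hematopoietic marker. They were sequenced with the 10x Genomics Single Cell 3' v2 chemistry. Immune cell-like and erythroid-like cells were still present, as given below. The wild type group (Setd5+/+, WT) held 2 libraries, here WT3 and WT6, and the heterozygous group (Setd5+/-, Het) held 2 libraries, here Het5 and Het9. By the study's methods the Setd5+/- animal is a heterozygous knockout made with a Setd5-GFP transgenic allele, which is not limited to 1 cell type. CD24 is a surface protein of young neurons, so the radial glia measured are those that passed a neuronal gate. Cd24a was at 2.48 to 2.68 counts per 10000 UMIs in radial glia-like cells, against 12.2 to 14.2 over all cells. No label ties a library name to 1 of the 4 sample records or says which fetus a library came from, so p-values measure the spread between libraries.

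The table held 6562 cells, between 1445 and 1954 per library, with 8205330 to 11742956 unique molecular identifiers (UMIs, each a counted mRNA molecule) per library and a median of 5398 to 5997 UMIs per cell. Setd5 itself, the targeted gene, was at 1.18 and 1.07 counts per 10000 UMIs over all cells in the WT libraries, against 0.540 and 0.586 in the Het libraries. Xist, the RNA of the inactive X chromosome, was at 20.6 and 21.5 in the WT libraries and at 0.152 and 0.310 in the Het libraries, and the Y-linked gene Ddx3y was at 0 and 0.000602 against 0.492 and 0.465, so fetal sex and genotype cannot be told apart. A total of 224 cells, 56 per library, carried a barcode found in all 4 libraries. Of these, 140 were melanocyte-like and 84 immune cell-like, and 0 were radial glia-like.

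Clustering without the 10 genes gave 13 clusters. A cluster of 676 cells was radial glia-like: 94 in WT3, 238 in WT6, 222 in Het5 and 122 in Het9, or 6.47%, 12.2%, 12.98% and 8.44% of each library. All 18 of its reference markers, a list that holds none of the 10 genes and includes Mt3, Hes5, Ddah1, Mfge8 and Hes1, were higher inside than outside it in 4 of 4 libraries. The shares overlapped between genotypes (exact permutation test over the 4 libraries, two-sided p = 0.667, where the smallest p that 2 against 2 allows is 0.33). Further clusters were intermediate progenitor-like (563 cells, led by Neurog2 and Eomes), excitatory neuron-like (1457), interneuron-like (539), striatal neuron-like (378), subpallial progenitor-like (426, led by Gsx1 and other genes of the ventral forebrain), cycling (722), melanocyte-like (147), immune cell-like (105) and erythroid-like (28). A further 3 clusters stayed unnamed and are called by leading genes, Cxcl12 and Cdh8 (950 cells), Tac2 and Reln (402), and Hells and E2f1 (169). Radial glial cells with Olig1 formed no cluster of their own and are described as the 54 radial glia-like cells that held an Olig1 UMI.

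Of the 10 genes, Fabp7 and Aldoc differed by genotype in the radial glia-like cells, and the DNA before their starts is shown because Notch acts on several radial glia genes through RBPJ. Fabp7 lies on chromosome 10 at chr10:57784881-57788450 and Aldoc on chromosome 11 at chr11:78322968-78327781, both on the plus strand (GENCODE M21, GRCm38). RefSeq promoter windows (GRCm38.p6, 250 bases before to 50 after a start) were at hand for 9 of the 10 genes, and for Sox9 none was at hand. The stretches below end where the GENCODE gene begins and read 5' to 3'. Capitals mark matches on either strand to the RBPJ core TGGGAA and to the nuclear factor I half-site TTGGCA.
Fabp7, chr10:57784673-57784880: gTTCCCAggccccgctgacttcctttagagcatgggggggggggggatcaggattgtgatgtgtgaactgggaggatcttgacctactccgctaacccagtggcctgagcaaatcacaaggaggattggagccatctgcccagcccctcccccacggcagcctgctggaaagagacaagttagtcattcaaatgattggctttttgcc
Aldoc, chr11:78322823-78322967: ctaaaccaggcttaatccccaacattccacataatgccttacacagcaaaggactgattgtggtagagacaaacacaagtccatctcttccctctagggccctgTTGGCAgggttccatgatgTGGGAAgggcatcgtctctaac

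The RBPJ letters stood at position 2 of the Fabp7 window, counted from its 5' end, and at position 124 of this Aldoc window. They also occurred in the second Aldoc window and in both Tnc windows, and not in the windows of Slc1a3, Vim, Nes, Pax6, Sox2 or Hopx. Across all 32851 promoter windows of the same length 25.6% held TGGGAA on 1 strand or the other and 14.1% held TTGGCA, so a match is common and says nothing of binding.

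The level of a gene is given as its mean count per 10000 UMIs over the cells of a cluster in 1 library. Each molecule is read once from its 3' end, so gene length does not enter. Levels of different genes are set side by side as counts only, since how well each gene is captured was not measured. Differences in level between clusters are descriptions without a test, since clusters were drawn from the same cells.

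Fabp7, the lipid carrier, had the highest counts of the 10 in radial glia-like cells. It reached 57.7 in WT3, 55.3 in WT6, 68.6 in Het5 and 65.1 in Het9 in the radial glia-like cells, and 78.7% of all Fabp7 UMIs of the table came from this cluster of 10.3% of the cells. The next 4 clusters in order, Hells and E2f1, intermediate progenitor-like, subpallial progenitor-like, and Cxcl12 and Cdh8, had means of 4.59, 4.12, 3.88 and 3.67, and the first 3 of these did not stand apart from the cluster after them. The step from radial glia-like to intermediate progenitor-like cells was 14.98-fold (11.8-fold to 19.5-fold over the 4 libraries), and the step to excitatory neuron-like cells was 38.8-fold. Thinned to 3000 UMIs per cell, 94.9% of radial glia-like, 58.6% of intermediate progenitor-like and 33.2% of excitatory neuron-like cells held a Fabp7 UMI. In immune cell-like cells, which should lack the gene, 1.90% of cells held one before thinning, at a median of 1923 UMIs against 6972.5 in the radial glia-like cells, where the share before thinning was 97.6%.

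Slc1a3 (chr15:8634124-8710764, minus strand), which clears glutamate, followed the same course at a lower level. It was at 6.86, 6.14, 5.69 and 5.40 in WT3, WT6, Het5 and Het9 in radial glia-like cells, 7.29-fold above the intermediate progenitor-like cells (6.54-fold to 8.75-fold) and 37.4-fold above excitatory neuron-like cells. The gene closest in pattern to Fabp7 over the 13 clusters, among genes that reached 1 count per 10000 in a cluster, was Slc1a3, and the reverse held too (Pearson r = 0.947 of mean log2 levels, a description over 13 clusters that share libraries). Acot1 and Plpp3 followed for Fabp7 (0.942 and 0.932), and Mt3 and Plpp3 for Slc1a3 (0.928 and 0.925).

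Vim (chr2:13573927-13582826, plus strand) and Nes (chr3:87971078-87980451, plus strand), the filament genes, differed in where they were lost. Vim was at 22.0, 20.1, 19.5 and 23.6 in radial glia-like cells and still at 11.5, 11.1, 12.6 and 10.98 in intermediate progenitor-like cells, a ratio of 1.85, and at 1.02 on average in excitatory neuron-like cells, 20.9-fold below radial glia. Cells outside the neural lineage also held Vim, with a mean of 12.96 in melanocyte-like and 7.74 in immune cell-like cells. Nes was at 1.92, 2.13, 2.02 and 1.66 in radial glia-like cells, 5.33-fold above intermediate progenitor-like cells. The second highest level of Nes was in subpallial progenitor-like cells, at 0.757, which overlapped the Hells and E2f1 cluster over libraries. The nearest genes in pattern were Immp1l, Calu and Eef1d for Vim (r = 0.899, 0.889 and 0.886) and Dkc1, Hmgn3 and Sox21 for Nes (0.935, 0.933 and 0.917).

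Among the transcription factors, Pax6 stayed close to its radial glial level in intermediate progenitors and Sox9 did not. Pax6 (chr2:105668900-105697364, plus strand), which sets the dorsal identity of cortical progenitors, was at 2.26, 2.84, 2.79 and 2.89 in radial glia-like cells, and the intermediate progenitor-like cells followed at 1.80, 1.98, 2.08 and 1.78, a ratio of 1.41 (1.25 to 1.62). The libraries of both clusters stood apart. The Hells and E2f1 cluster (1.60) and the Cxcl12 and Cdh8 cluster (1.06) came next, and excitatory neuron-like cells had 0.107. Ehbp1, E130114P18Rik and Hdhd2 were nearest to Pax6 in pattern (r = 0.938, 0.937 and 0.934).

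Sox9 (chr11:112782224-112787760, plus strand), which turns progenitors toward glia, was at 3.46, 3.58, 3.46 and 3.31 in radial glia-like cells, 3.67-fold above the second cluster in order (subpallial progenitor-like, 0.940) and 7.44-fold above intermediate progenitor-like cells. Its nearest genes were Ddah1, Mid1ip1 and Nr2e1 (r = 0.912, 0.906 and 0.901).

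Sox2 (chr3:34650405-34652461, plus strand), the neural stem cell factor, broke the pattern, because radial glia-like cells were not its highest cluster. It was highest in cycling cells, at 5.07, 4.90, 4.75 and 4.68, which stood above the radial glia-like values of 3.18, 3.66, 3.35 and 3.36 in 4 of 4 libraries. Interneuron-like cells (mean 3.73), radial glia-like cells (3.39) and striatal neuron-like cells (3.35) overlapped over libraries, while intermediate progenitor-like and excitatory neuron-like cells had 0.931 and 0.0939. Only 24.6% of Sox2 UMIs came from the radial glia-like cluster, against 36.1% from cycling cells, and Sox1, Tox3 and Cdca7 were the genes closest to it in pattern (r = 0.958, 0.941 and 0.899). Sox2 lies inside the noncoding gene Sox2ot and Slc1a3 overlaps Gm37310, both on the same strand, while Pax6, Hopx and Tnc overlap Pax6os1, Hopxos and 8030451A03Rik on the opposite strand. Whether counting used strand is not given in the sources used here, so reads in these overlaps are uncertain.

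Tnc, Aldoc and Hopx were low or undetected in most other clusters. Tnc (chr4:63959785-64047015, minus strand), an extracellular matrix protein of the stem cell niche, was at 0.650, 0.666, 0.947 and 0.834 there, with 90.1% of its UMIs in the table in this cluster. Melanocyte-like cells held 0.271, and the next cluster in order, intermediate progenitor-like, held 0.04997. Aldoc, an aldolase of glycolysis that astrocytes keep in the adult brain, was at 4.51, 4.61, 6.35 and 5.76, with 87.2% of its UMIs in the cluster, 12.4-fold above intermediate progenitor-like and 253-fold above excitatory neuron-like cells. The gene closest to Tnc over the clusters was Aldoc (r = 0.957), followed by Sparc and Tst (0.904 and 0.868), while Plagl1, Glo1 and Rcn1 were closest to Aldoc (0.899, 0.896 and 0.878).

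Hopx (chr5:77086988-77115121, minus strand), a small homeodomain protein used as a marker of outer radial glia, divided the libraries in a way that crossed genotype. It was at 1.02 in WT3 and 1.09 in Het9, and at 0.205 in WT6 and 0.310 in Het5. The share of radial glia-like cells with a Hopx UMI after thinning was 20.4% and 24.0% in WT3 and Het9 against 5.88% and 8.72% in WT6 and Het5. In intermediate progenitor-like cells, at lower levels, WT3 and Het9 (0.302 and 0.143) again lay above WT6 and Het5 (0.0268 and 0.0301), with WT3 rather than Het9 the highest, and the Tac2 and Reln cluster had 0.0359 and 0.0971 against 0.00930 and 0.01002. WT3 and Het9 also had the fewest radial glia-like cells and the lower median depth (5398 and 5549 UMIs per cell against 5901.5 and 5997), whose part in the Hopx values was not tested. No Hopx UMI was found in 378 striatal neuron-like cells, which allows a share of cells with a UMI of up to 0.794% (counting error only). The nearest genes in pattern were 1500015O10Rik, Ccdc80 and Creb5 (r = 0.896, 0.879 and 0.857).

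**Figure D1:**
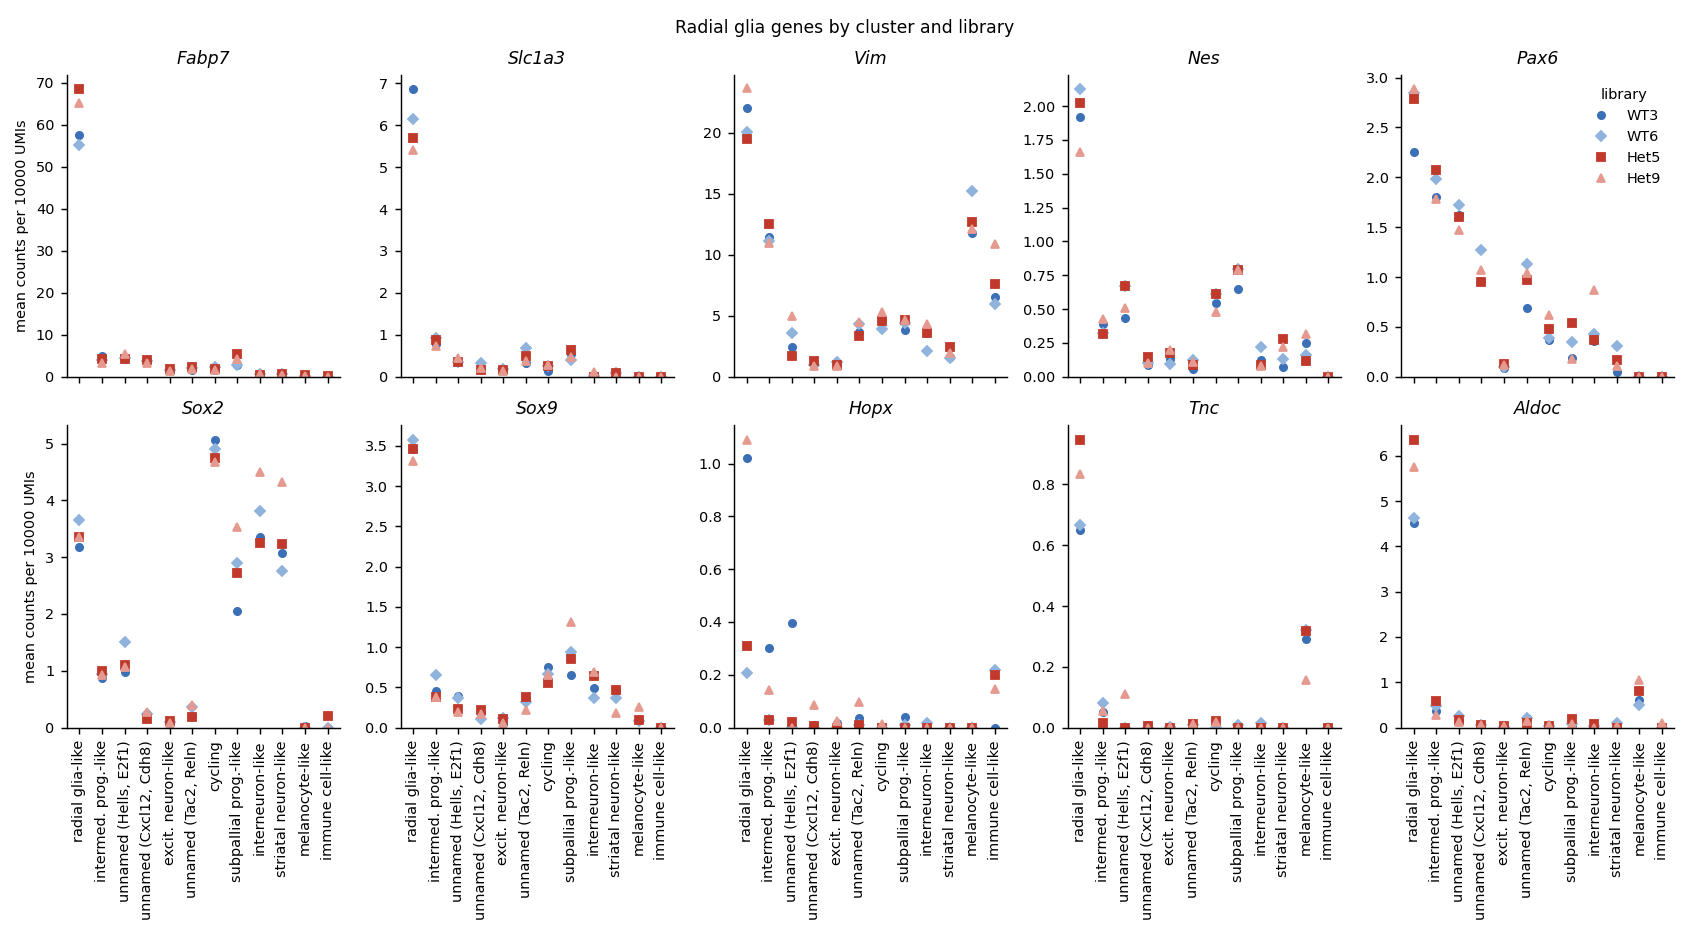
Mean counts per 10000 UMIs (linear y axes from 0) of the 10 genes in 12 clusters (x axis), with 1 point per library, blue for WT3 and WT6 and red for Het5 and Het9. By their means all genes but Sox2 are highest in radial glia-like cells, Vim and Pax6 stay high in intermediate progenitor-like cells, Sox2 is highest in cycling cells, and the Hopx points split into WT3 and Het9 above WT6 and Het5.

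Fewer of the 10 genes were found together in a cell outside radial glia. After thinning to 3000 UMIs the median was 6 of 10 genes per radial glia-like cell in each of the 4 libraries, 2 or 3 per intermediate progenitor-like cell and 1 per excitatory neuron-like cell. Between 72.0% and 82.1% of radial glia-like cells held 5 or more of the genes, against 7.74% to 10.0% of intermediate progenitor-like cells and 0% of excitatory neuron-like cells. Of the radial glia-like cells before thinning, 144 held Hopx, 215 held Tnc and 56 held both. Tnc was found in 38.9% of cells with and 29.9% of cells without Hopx, at median depths of 7473.5 and 6857.5 UMIs.

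Within the radial glia-like cluster, cells with Olig1 differed from the rest. The 54 cells with an Olig1 UMI (14, 27, 10 and 3 cells in WT3, WT6, Het5 and Het9) had less Pax6 in 4 of 4 libraries, with 0.955, 1.28, 0.988 and 0 against 2.48, 3.04, 2.87 and 2.96 in cells without Olig1. Vim was also lower in 4 of 4 libraries, at 12.9, 15.6, 10.7 and 18.4 against 23.6, 20.6, 19.9 and 23.8, and Sox2 was higher in 4 of 4, with a ratio of means of 1.22. Fabp7, Slc1a3 and Sox9 were higher in 3 of 4 libraries, with Het5 (10 cells) the exception. In the WT libraries, which hold most of these cells, Fabp7 was at 86.0 and 90.5 with Olig1 and at 52.7 and 50.8 without, and Slc1a3 at 12.8 and 13.4 against 5.83 and 5.22. The 0 for Pax6 in Het9 rests on 3 cells.

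A finer clustering drew a similar line. At a higher resolution most of the radial glia-like cells fell into a set of 490 cells, here A, and a set of 168 cells, here B. Of the cells of A 489 were radial glia-like, as were all of B. An Olig1 UMI was held by 39 cells of B (23.2%) against 10 of A (2.04%). In B, Fabp7 was at 104, 84.7, 142 and 128 against 40.2, 44.0, 47.7 and 47.7 in A, and Slc1a3 at 12.4, 10.6, 10.3 and 8.77 against 4.62, 4.31, 4.38 and 4.37. Nes, Sox2, Sox9 and Tnc were also higher in B in 4 of 4 libraries. Pax6 had a mean of 3.30 in A and 0.962 in B, Hopx of 0.752 and 0.233, and Vim of 23.4 and 16.4, each lower in B in 4 of 4 libraries. Hopx and Fabp7 were thus higher in different sets of these cells.

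Cells with Eomes, the intermediate progenitor factor, had less of most of the genes. The 96 cells with an Eomes and no Olig1 UMI had Fabp7 at 33.9, 18.4, 32.4 and 22.4, with a ratio of means of 0.370 to the 336 cells with no Olig1, Eomes or Top2a UMI. Fabp7, Slc1a3, Nes, Sox2, Sox9, Hopx and Aldoc were lower in 4 of 4 libraries, and Vim was higher in 4 of 4 (ratio of means 1.32). Pax6 had a ratio of 1.11 and was lower in Het9.

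Top2a, the topoisomerase of dividing cells, marked 223 cells. These had more Pax6, Sox2 and Tnc and less Vim and Sox9 than the 453 cells without it in 4 of 4 libraries, with ratios of means of 1.17, 1.26, 1.69, 0.665 and 0.801. Their median depth was 8264 UMIs against 6519. For Fabp7 the direction was lower in 3 libraries and higher in Het9.

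**Figure D2:**
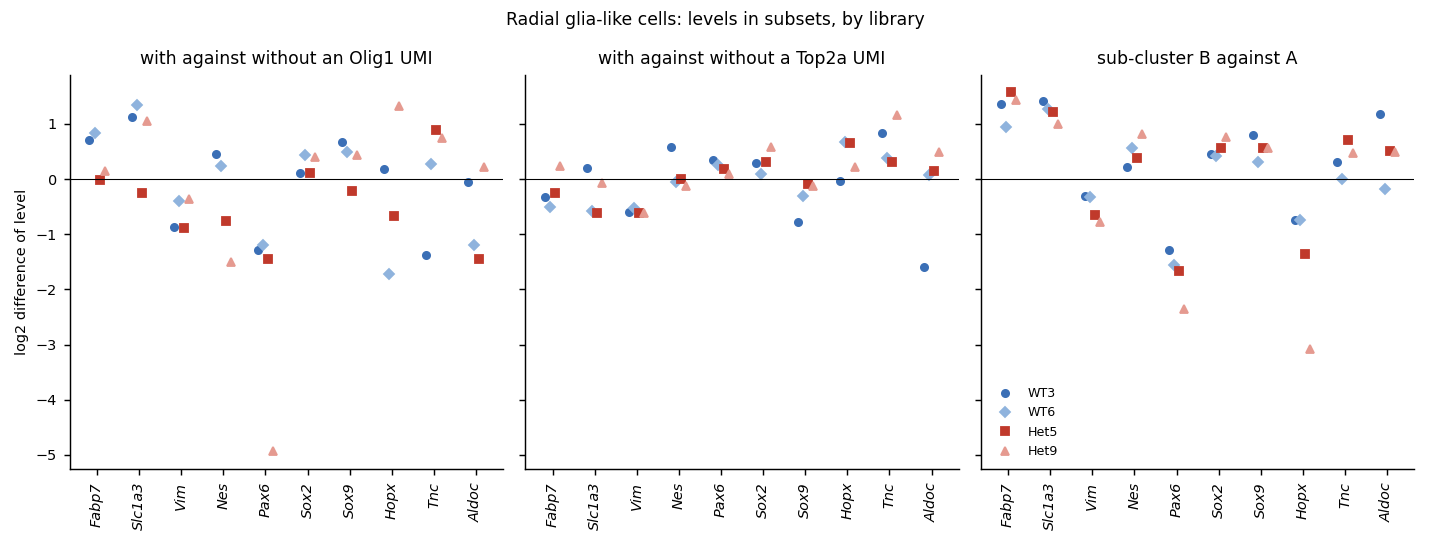
Log2 difference of level (y axis, log2 of mean counts per 10000 plus 0.1) of the 10 genes (x axis) between subsets of the radial glia-like cells, with Olig1, with Top2a and in set B (sub-cluster B) against A, 1 point per library. Pax6 and Vim lie below 0 in all libraries for cells with Olig1 and for set B, and Fabp7 and Slc1a3 lie above 0 in all libraries for set B and in 3 of 4 for Olig1. The lowest Pax6 point is Het9, with 3 cells.

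The second comparison asked whether these genes differed with loss of 1 copy of Setd5. Each library gave 1 value per gene and cluster, and genotypes were compared by limma on log2(mean count per 10000 + 0.1) over all genes with a mean of at least 0.1, with p adjusted by Benjamini-Hochberg and called under 0.05. Differences are Het minus WT on that log2 scale with the standard error (SE) of limma, which borrows spread from genes of like level. The 10 genes were all tested in the radial glia-like cells, where limma worked with 22.5 degrees of freedom, while an exact permutation test of a single gene over 2 against 2 libraries cannot go below p = 0.33.

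In radial glia-like cells Fabp7 and Aldoc were higher in Het. A total of 2 of the 10 genes passed, where 21 of all 8267 genes tested (0.254%) did. A higher Fabp7 in Het was already known from these data when the genes were chosen, so its test is not a fresh one. Fabp7 was at 57.7 and 55.3 in WT and at 68.6 and 65.1 in Het, both Het libraries above both WT libraries, a 1.18-fold rise (log2 difference 0.24, SE 0.040, limma adjusted p = 0.00229). Aldoc was at 4.51 and 4.61 in WT and at 6.35 and 5.76 in Het, again without overlap, a 1.32-fold rise (0.40, SE 0.086, limma adjusted p = 0.0495), and it stood last of the 21 genes by p.

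The 8 other genes did not pass, and 4 of the 10 had an unadjusted p under 0.05, as had 434 of all 8267 genes tested (5.25%). Tnc was at 0.650 and 0.666 in WT against 0.947 and 0.834 in Het (0.38, SE 0.16, limma adjusted p = 0.912) and Slc1a3 at 6.86 and 6.14 against 5.69 and 5.40 (-0.22, SE 0.084, limma adjusted p = 0.819). Both were without overlap between genotypes, which held for 4 of the 10 genes and for 33.8% of all genes tested. The other 6 overlapped. Hopx had a log2 difference of 0.26 (95% interval -0.58 to 1.09), Pax6 of 0.16 (-0.08 to 0.40), Nes of -0.13 (-0.39 to 0.13), Vim of 0.03 (-0.11 to 0.18), Sox2 of -0.02 (-0.23 to 0.19) and Sox9 of -0.05 (-0.25 to 0.15). The median over the 10 was 0.09, against -0.01 over all genes tested.

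**Figure D3:**
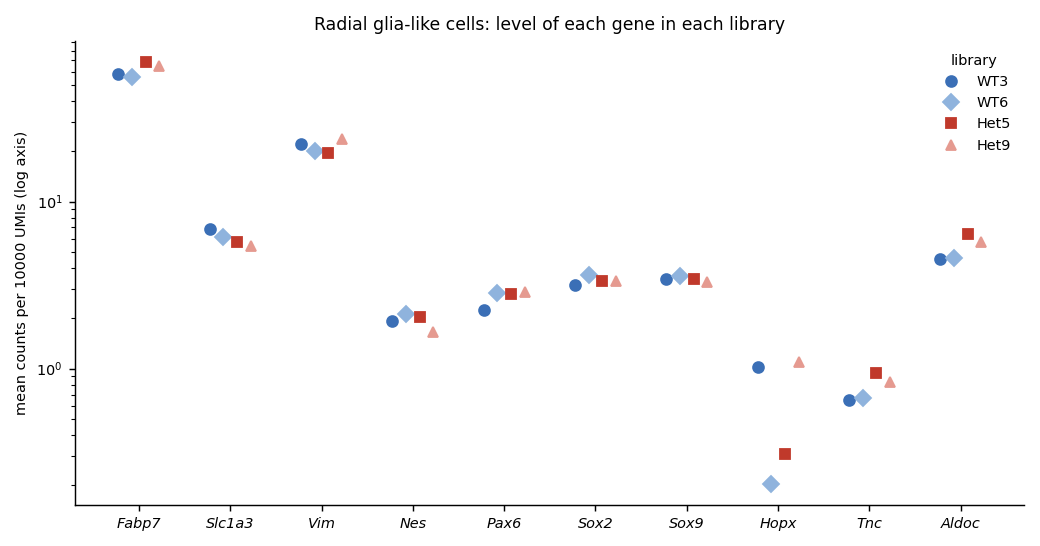
Mean counts per 10000 UMIs of the 10 genes in radial glia-like cells (log y axis), 1 point per library, blue for WT3 and WT6 and red for Het5 and Het9. The Het points lie above the WT points for Fabp7, Tnc and Aldoc, below them for Slc1a3, and among them for the other 6 genes.

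The distributions of Fabp7 over cells crossed between genotypes. The median radial glia-like cell held 33.3 and 38.3 counts of Fabp7 per 10000 in the WT libraries, against 39.8 and 37.1 in the Het libraries, and the 90th percentiles were 153, 115, 136 and 156, so both overlapped between genotypes. The 10th percentile was lowest in Het9, at 3.26, against 6.50 to 8.60 in the other libraries. The limma SE of Fabp7 rests on the library means and largely on the spread of genes of like level. Whether it covers this spread of Fabp7 over cells was not tested.

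**Figure D4:**
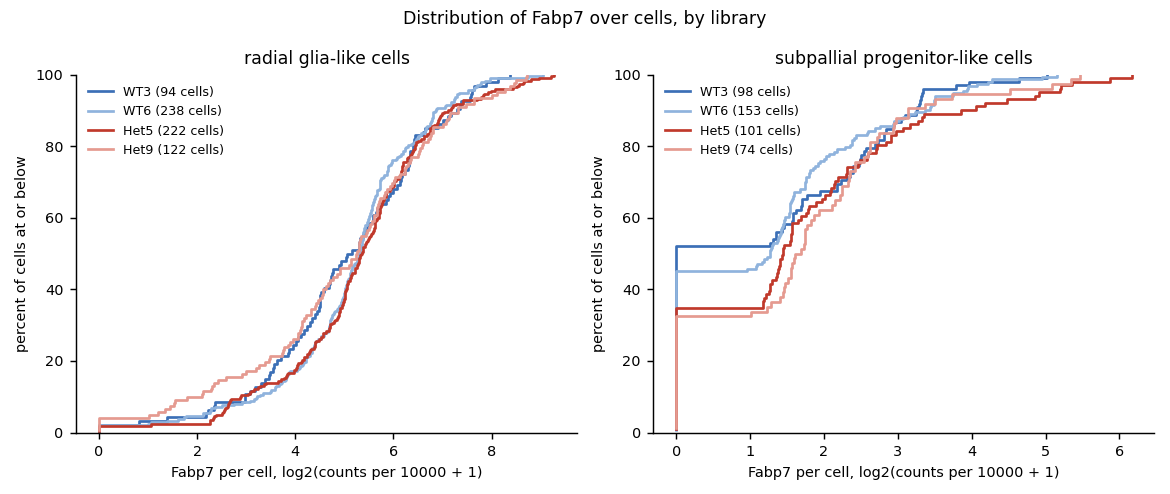
Cumulative distribution of Fabp7 per cell (x axis, log2 of counts per 10000 plus 1; y axis, percent of cells at or below) in radial glia-like cells (left) and subpallial progenitor-like cells (right), 1 line per library. The 4 lines cross in the radial glia-like cells, where library medians run from 33.3 to 39.8 counts per 10000, while fewer subpallial cells of Het5 and Het9 lie at 0.

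The make-up of the radial glia-like cluster moved with genotype as well. Olig1 fell, at 0.889 and 0.992 in WT and 0.432 and 0.147 in Het (-1.52, SE 0.24, limma adjusted p = 0.00187), and the share of cells with an Olig1 UMI was 14.9% and 11.3% in WT (exact binomial 95% intervals 8.39% to 23.7% and 7.61% to 16.1%) and 4.50% and 2.46% in Het (2.18% to 8.13% and 0.510% to 7.02%; exact permutation p = 0.333, the smallest possible). Eomes rose, at 0.503 and 0.398 in WT and 0.775 and 1.26 in Het (0.99, SE 0.19, limma adjusted p = 0.0165), and 3 of the 11 intermediate progenitor markers (Eomes, Neurog2 and Gadd45g) were among the 21 genes that passed. The summed level of those 11 markers was 6.62 and 6.56 in WT and 8.94 and 13.3 in Het. Much of it came from Neurog2 (2.08 and 1.65 against 3.09 and 4.48) and Gadd45g (1.52 and 1.75 against 2.38 and 4.25). Among the rest, Neurog1 was without overlap at a low level (0.0143 and 0.0190 against 0.0219 and 0.0816). Rhbdl3, Btbd17, Hes6, Mfng, Sstr2, Tac2 and Neurod1 overlapped between genotypes. Of the other genes that passed, 5 were sex-linked and 4 were haemoglobin genes, whose marker list (6 genes) summed to 7.81 and 5.83 in WT and 25.5 and 19.4 in Het. The choroid plexus list (4 genes in the table) was at 0.0154, 0.0512 and 0.0515 in WT3, WT6 and Het5 and at 16.6 in Het9, nearly all of it Ttr (16.3). The regional genes Zic1 and Zic4, marks of the septum and cortical hem, fell (-0.88 and -1.10, limma adjusted p = 0.0165 and 0.0115), and the septal and hem list of 5 genes, with 0 of them at 0 in any library, summed to 2.60 and 2.96 in WT and 1.83 and 1.68 in Het. The other 3 genes of that list did not pass and did not share a direction. Wnt8b was at 0.0245 and 0.117 in WT and 0.157 and 0.361 in Het (1.07, limma adjusted p = 0.306), Zic5 at 0.320 and 0.351 against 0.279 and 0.457, and Fgf15 at 0.319 and 0.796 against 0.395 and 0.190. The Cajal-Retzius cell and cortical hem list (9 genes, of which 3, 3, 1 and 4 were at 0 in WT3, WT6, Het5 and Het9) went the other way, with sums of 0.162 and 0.415 in WT and 0.458 and 1.49 in Het. Its member Rspo3, an enhancer of Wnt signaling, was at 0.00818 and 0.129 in WT and 0.209 and 0.899 in Het (1.82, limma adjusted p = 0.0286). Rspo3 and the growth factor gene Fgf17 (-1.66, limma adjusted p = 0.00362) passed and are named here after their values were seen. Refits without cells that held Olig1, Eomes, Top2a or Ttr are given with the results that follow, and the part of the haemoglobin, sex-linked and regional genes in the Fabp7 and Aldoc results was not tested.

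Fabp7 was also compared in subsets of these cells drawn by an Olig1, Eomes or Top2a UMI, which were chosen after the data had been seen. In the 622 cells without an Olig1 UMI it was at 52.7 and 50.8 in WT and 68.6 and 65.0 in Het (0.37, SE 0.043, limma adjusted p = 0.000264; 0.147% of genes passed), and Aldoc had 0.37 (limma adjusted p = 0.536). Without the cells that held an Eomes UMI Fabp7 had 0.34 and Aldoc 0.48, both past the threshold (0.374% of genes passed), and without those that held a Ttr UMI they had 0.17 and 0.33 (limma adjusted p = 0.525 and 0.483; 0.182% of genes passed). In the 336 cells with no Olig1, Eomes or Top2a UMI Fabp7 was at 64.7 and 62.7 against 86.8 and 75.2 (0.34, SE 0.046, past the limma threshold; 0.147% of genes passed).

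Among cells with Top2a both genes passed. Fabp7 was at 48.8 and 43.3 in WT and 61.3 and 72.9 in Het (0.54, SE 0.082, limma adjusted p = 0.000137; 0.207% of genes passed) and Aldoc at 1.80 and 4.76 against 6.77 and 7.29 (1.23, SE 0.22, limma adjusted p = 0.00169), where the low value came from 27 cells of WT3. In the cells without Top2a Fabp7 was at 61.3 and 61.2 against 72.9 and 62.1 (0.14, SE 0.056, limma adjusted p = 0.924; 0.184% of genes passed). The test of the difference itself did not separate the 2 kinds of cell (with minus without Top2a, 0.40, 95% interval -0.34 to 1.15, limma adjusted p = 0.952), and 0 of 7671 genes (0%) passed it by limma (333 at an unadjusted p under 0.05).

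In the same way Fabp7 passed in set B, at 104 and 84.7 in WT and 142 and 128 in Het (0.52, SE 0.084, limma adjusted p = 0.000116; 0.18% of genes passed), and not in set A, at 40.2 and 44.0 against 47.7 and 47.7 (0.18, SE 0.060, limma adjusted p = 0.704; 0.198% passed). The difference between the sets was not shown (A minus B, -0.34, 95% interval -1.20 to 0.51, limma adjusted p = 0.994; 0 of 7511 genes passed and 359 had an unadjusted p under 0.05). B made up 28.7% and 29.0% of the radial glia-like cells in WT and 22.5% and 18.0% in Het (exact permutation p = 0.333, the smallest possible).

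The Fabp7 call in radial glia-like cells was kept in 13 of 19 alternatives and its direction in 19 of 19 (0.14 to 0.47). It was lost without WT3 (0.27, limma adjusted p = 0.358), without WT6 (0.21, limma adjusted p = 0.396), at 3000 UMIs per cell (0.22, limma adjusted p = 0.0768), at the finer resolution, where the cluster is set A, and with cells holding Top2a or Ttr left out (0.14 and 0.17, limma adjusted p = 0.924 and 0.525). Aldoc passed in 5 of 19 and was positive in 19 of 19 (0.15 to 0.51). Leaving out shared barcodes removed no radial glia-like cell, so that alternative could not change either call. Hopx hung on single libraries, with 1.03 without Het5 (limma adjusted p = 0.00137), 1.20 without WT3, -0.68 without WT6 and -0.51 without Het9.

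Outside radial glia, Fabp7 rose in 1 further cluster. In subpallial progenitor-like cells, which make interneurons and other neurons of the ventral forebrain, Fabp7 was at 2.88 and 2.85 in WT and at 5.46 and 4.33 in Het, a 1.67-fold rise (0.74, SE 0.13, limma adjusted p = 0.00205). It was the 1 gene to pass among the 7 that could be tested there, where 25 of 7440 genes (0.336%) passed. The share of these cells with a Fabp7 UMI at 3000 UMIs per cell was 35.4% and 41.7% in WT and 48.5% and 51.4% in Het. Sox2 had 2.05 and 2.90 against 2.72 and 3.53 (0.33, SE 0.16, limma adjusted p = 0.726), and the other 5 had log2 differences between 0.12 and 0.39. Fabp7 and Vim were without overlap between genotypes, as were 36% of all genes tested. The Fabp7 call was kept in 11 of 17 alternatives (0.44 to 0.99, positive in 17), and it was lost without WT3, WT6 or Het5 (0.75, 0.73 and 0.58, limma adjusted p = 0.439, 0.506 and 0.0758), at 3000 UMIs, with the 10 genes kept in the clustering and without cells holding Olig1 (0.52, limma adjusted p = 0.305; 0.216% of genes passed). Leaving out shared barcodes, or the Eomes cells of the radial glia-like cluster, removed no subpallial cell, so those alternatives could not change the call. In the subpallial cells Olig1 had a log2 difference of 0.90 (limma adjusted p = 0.135) and Top2a of 0.50 (limma adjusted p = 0.544). Without cells holding Top2a Fabp7 passed at 0.99 (0.324% of genes passed).

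The radial glia-like and subpallial differences in Fabp7 were not shown to differ from each other, in a test added after the data had been seen (radial glia-like minus subpallial, -0.50, 95% interval -1.06 to 0.06, limma adjusted p = 0.910; 0 of 7073 genes passed and 370 had an unadjusted p under 0.05).

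In intermediate progenitor-like cells Fabp7 did not follow. It was at 4.88 and 4.002 in WT and 4.24 and 3.34 in Het (-0.23, SE 0.11, limma adjusted p = 0.915), overlapping between genotypes. The test of the difference between radial glia-like and intermediate progenitor-like cells gave 0.47 (95% interval -0.19 to 1.13, limma adjusted p = 0.978), and 0 of 7078 genes passed it (314 at an unadjusted p under 0.05). Sox9 was without overlap there, at 0.449 and 0.649 against 0.383 and 0.375 (-0.42, SE 0.21, limma adjusted p = 0.915), where 33.2% of genes had no overlap. None of the 9 genes tested passed, and 0.186% of all genes did.

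Across the 10 other clusters tested, intermediate progenitor-like cells included, 0 of 64 tests of these genes passed by limma. An unadjusted p under 0.05 was found in 10 of the 64, where 4.49% to 5.48% of all genes tested in a cluster had one. The 64 include 6 tests in melanocyte-like and 2 in immune cell-like cells. There 140 of 147 and 84 of 105 cells carried a barcode found in all 4 libraries. Setd5 had log2 differences of 0.20 and 0.49 in these clusters, so their tests may not compare genotypes. Of all genes, 0.206% passed in excitatory neuron-like, 0.13% in interneuron-like, 0.0933% in striatal neuron-like and 0.108% in cycling cells, 0.105%, 0.0774% and 0.0659% in the Cxcl12 and Cdh8, Tac2 and Reln, and Hells and E2f1 clusters, and 0% in melanocyte-like and immune cell-like cells. Low values removed many of them, since 5 of the 10 genes were above the minimum in excitatory neuron-like cells and 7 in the Cxcl12 and Cdh8 cluster. Over all cells of a library 8 of the 10 could be tested, 0 passed (0.086% of all genes did, and 0 of the 8 had an unadjusted p under 0.05) and Fabp7 had a log2 difference of 0.35 (95% interval -0.17 to 0.86). In such a sum more radial glia and more RNA per cell cannot be told apart.

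**Figure D5:**
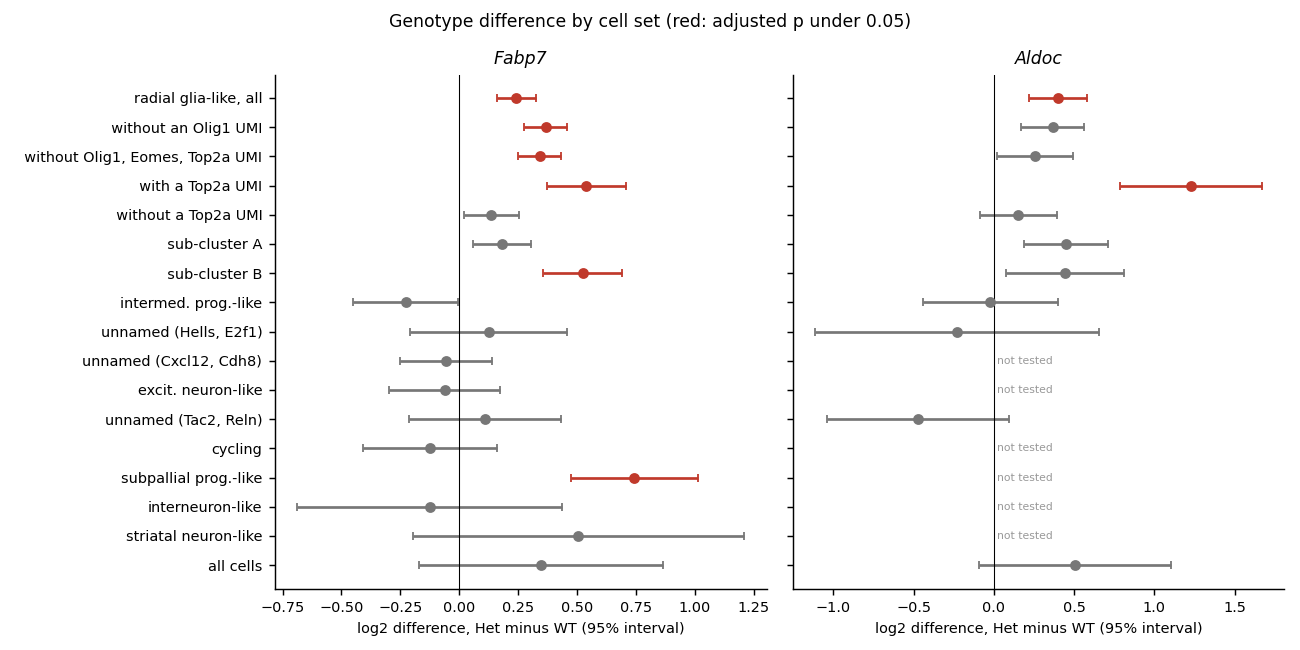
Log2 difference, Het minus WT, of Fabp7 (left) and Aldoc (right) in the radial glia-like cells, their subsets, other clusters and all cells, with 95% intervals from limma, red where the adjusted p is under 0.05. Fabp7 is red in radial glia-like cells, in 4 of their 6 subsets and in subpallial progenitor-like cells, and Aldoc in radial glia-like cells and in those with Top2a. Cell sets without a point were below the minimum level.

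Companion genes of radial glia were described by 4 lists. In radial glia-like cells 0 genes passed by limma among 18 tested of the Notch and stem cell list (Notch1, Hes1, Hes5, Sox1 and others; 3 at an unadjusted p under 0.05, median log2 difference 0.07), 9 of the outer radial glia and adhesion list (Ptprz1, Itgb1, Sdc3; 1 and 0.05), 23 of the lipid, amino acid and energy metabolism list (Dbi, Phgdh, Glul; 6 and -0.01) and 11 of the astrocyte list (Nfia, Gpm6b, Id3; 2 and 0.04), against a median of -0.01 over all genes tested. Of all genes tested there 0.254% passed and 5.25% had an unadjusted p under 0.05. The 3 with the largest differences did not pass. They were the Notch ligand Dll1 (0.59, limma adjusted p = 0.891), the glutamate transporter Slc1a2 (-0.51, limma adjusted p = 0.914) and the endothelin receptor Ednrb (-0.49, limma adjusted p = 0.525).

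In intermediate progenitor-like cells 0 genes passed by limma among 14 tested of the Notch and stem cell list, 8 of the outer radial glia and adhesion list and 20 of the metabolism list (2, 2 and 1 at an unadjusted p under 0.05), where 0.186% of all genes passed and 5.41% had an unadjusted p under 0.05. The progenitor factor Sox21 had a log2 difference of -0.67 there and the receptor phosphatase Ptprz1 of -0.66, both with a limma adjusted p of 0.588. In subpallial progenitor-like cells 0 genes of the 4 lists passed by limma (16, 8, 21 and 8 tested, with 2, 0, 1 and 3 at an unadjusted p under 0.05), where 0.336% of all genes passed and 6.75% had an unadjusted p under 0.05.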

How the data were processed

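Single-cell RNA-Seq of 4 libraries was analysed from 1 deposited table of 16600 genes by 6562 cells. Per the submitters' processing notes, reads were processed with Cell Ranger 2.1 on mm10 and the cells with Seurat 2.3.0. The deposited values are natural log values, ln(counts per 10000 + 1), made by the authors. Whole UMIs were recovered for 100% of values above 0 (tolerance 0.001) and served for detection, thinning and totals. Library prefixes gave the genotype, and 0 columns were unmatched.

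Cells were clustered in scanpy 1.11.5 (Python 3.11.15; 2000 variable genes, without the 10 genes, 16 genes of the study and Setd5; 20 principal components, 20 neighbours, leidenalg 0.10.2, resolution 0.4), giving 13 clusters. Cluster names were rebuilt from marker lists and may differ from the study's. Scrublet marked 64 cells (0.975%) as doublets, which were kept in the main analysis. The mean per library and cluster (at least 20 cells per library) was compared by limma 3.58.1 (R 4.3.3) with a variance trend, over genes with a mean of at least 0.1 per 10000, as log2(mean + 0.1), with Benjamini-Hochberg adjustment over all genes tested. Scripts were tested on simulated data.

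The members and lists were chosen with earlier results of these data known. Genes named were the 10 genes, the 3 nearest to each in pattern, Setd5, cell type markers, leading genes of clusters, and from the companion lists each gene that passed and the 3 with the largest difference in radial glia-like and intermediate progenitor-like cells. The astrocyte list in intermediate progenitor-like cells is not reported here. Alternatives were other pseudocounts (0.01 and 1), no filter, leaving out each library, summed UMIs, thinning to 3000 UMIs, doublets or shared barcodes left out, other resolutions, members kept in clustering, and marker gates. Leaving out cells with Olig1, Eomes, Top2a or Ttr was added after the data had been seen. Intervals of shares are exact binomial and cover counting error only.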

Additional observations from a re-analysis of the deposited data

How the results depend on the processing

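No paired analysis was possible because the library prefixes of the table carry no replicate number of the labels. In radial glia-like cells 2 of the 10 genes passed. The number was 1 with a pseudocount of 0.01 or 1, without doublets, at the lower resolution, with the 10 genes kept in clustering, without cells holding Olig1 and by marker gates. It was 0 after thinning, at the higher resolution and without cells holding Top2a or Ttr, and 0 to 2 when 1 library was left out (0 without WT3 and 0 without WT6). In subpallial progenitor-like cells the number was 1, and 0 after thinning, with the 10 genes kept in clustering and without cells holding Olig1, and 0 to 1 when 1 library was left out (0 without WT3, WT6 or Het5). In interneuron-like cells it was 0 to 1 (Vim without WT3). Of all genes, 21 passed in radial glia-like cells, against 13 after thinning, 12 without cells holding Olig1, 12 by marker gates and 8 to 80 when 1 library was left out (80 without Het5). In subpallial progenitor-like cells 25 passed, against 39 with summed UMIs, 12 after thinning, 16 without cells holding Olig1 and 7 to 42 when 1 library was left out (42 without Het5).

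Genes that did not pass and changed sign in radial glia-like cells were Slc1a3 (0.0831 by marker gates), Vim (-0.0025 with the 10 genes kept, -0.0197 without Olig1 cells, -0.0337 without Eomes cells, -0.106 to 0.169 with 1 library left out), Nes (-0.268 to 0.0032 with 1 library left out), Pax6 (-0.0038 to 0.318 with 1 library left out), Sox2 (0.0102 after thinning, 0.0437 at the lower resolution, 0.007 without Olig1 cells, 0.0201 without Eomes cells, -0.121 to 0.0765 with 1 library left out), Sox9 (0.0403 without Olig1 cells, 0.0913 by marker gates) and Hopx (-0.684 to 1.195 with 1 library left out). The cause was not tested. With 1 library left out, the lone library of a genotype is assumed to vary like the others. No value could be had for 7 clusters at the lower resolution, which had no match, for the Tac2 and Reln cluster with the 10 genes kept, for thinned immune cell-like cells, and for the gate with Olig1 and the erythroid-like cluster, which held too few cells. Hopx and Tnc are limited by depth, since 21.3% and 31.8% of radial glia-like cells held a UMI of them.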

Other observations

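Aldoc and Hopx were found together often. Of the 144 radial glia-like cells with a Hopx UMI 89.6% held Aldoc, against 73.3% of the cells without Hopx, and of the 215 cells with Tnc 86.0% held Aldoc, against 72.5% of those without. Cells with Hopx or Tnc were deeper (medians of 7473.5 and 7626 UMIs against 6857.5 and 6800), whose part in these shares was not tested.

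In set B Hopx was at 0.685 and 0.112 in WT and 0.0878 and 0.0490 in Het, which did not pass (log2 difference -1.29, SE 0.56, limma adjusted p = 0.736), and in set A it was at 1.21 and 0.253 against 0.381 and 1.16.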
